A study of Mus musculus with 4 samples.

Results

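GABAergic amacrine cells other than starburst cells were picked from single-cell RNA-seq of the mouse retina by a rule on the expression of single genes. A cell was taken when it held Gad1 or Gad2 and also Slc32a1 or Tfap2b. It had to lack Slc6a9, Lhx1, Onecut1 and Slc17a6, to hold fewer than 2 of the starburst genes Chat, Slc5a7 and Slc18a3, to hold fewer than 3 of the Müller glia genes Rlbp1, Slc1a3, Aqp4, Sox9 and Dkk3, and to have Rp1 under 15 UMIs (unique molecular identifiers, counted mRNA molecules) per 10000. The rule kept 1395 of 26543 cells, of which 428 came from the rolipram library, 390 from the BC11-38 library, 140 from the bleached vehicle library and 437 from the unbleached vehicle library.

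Amacrine cells are the interneurons of the inner retina, and the GABAergic ones inhibit bipolar cells, ganglion cells and each other, often over wide fields. Gad1 and Gad2 make GABA from glutamate, Slc32a1 loads it into synaptic vesicles, and Tfap2b is a transcription factor of amacrine cells. Many GABAergic amacrine types also release a neuropeptide, and the peptide genes are among the usual labels of those types.

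Every group, controls included, came from 6-week-old C57BL/6J mice that lack both Abca4 and Rdh8 (Abca4-/-Rdh8-/-), genes whose products clear all-trans-retinal after light. The rolipram group received 2 mg/kg rolipram, an inhibitor of cAMP phosphodiesterase PDE4, and the BC11-38 group received 2 mg/kg BC11-38, an inhibitor of PDE11. Both drugs were injected into the peritoneum in DMSO 30 min before 30 min of white light at 10000 lux, and retinae were taken 1 day after that bleach. The bleached vehicle group had the same light and DMSO alone. The unbleached vehicle group had DMSO and no bleach, and the dark adaptation of 24 h and the 1% tropicamide given before light are not recorded for it. Each group was 1 library of 4 retinae pooled from 2 mice, so no difference between groups could be tested against variation between mice, and both drug comparisons share the bleached vehicle library. Intervals are exact 95% intervals, limits given for a count of 0 are 3 counts of the total, and both cover counting error only.

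The libraries held 28983626 to 44386442 UMIs, with a median of 3443 to 4585 UMIs per cell. The rule's cells were deeper, with a median of 7211.5 UMIs in the rolipram library, 8930.5 in the BC11-38 library, 9341.5 in the bleached vehicle library and 11273 in the unbleached vehicle library. The bleached vehicle library stood apart in sex-linked genes. Xist was found in 63.3% of the GABAergic amacrine cells of the rolipram library, 44.6% of those of the BC11-38 library, 0% of those of the bleached vehicle library and 47.1% of those of the unbleached vehicle library. Y-linked UMIs were found in 66.6%, 65.6%, 92.9% and 76.4% of the same cells. Every comparison uses the bleached vehicle library, so the sex of the pooled mice cannot be told apart from bleach or drug. Some of the results are therefore also given over GABAergic amacrine cells with a Y-linked UMI and no Xist. The share of GABAergic amacrine cells among all cells is not. The cells of this subset numbered 138 in the rolipram library, 196 in the BC11-38 library, 130 in the bleached vehicle library and 216 in the unbleached vehicle library. Whether the subset holds only cells of males was not tested. The libraries shared 92 cell barcodes, held by 184 cells, of which 5 were GABAergic amacrine cells by the rule.

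The cells carried the genes of their label. Of genes that the rule did not use, Pax6, a transcription factor of amacrine cells, was found in 97.9%, 97.7%, 95% and 97.9% of the cells of the rolipram, BC11-38, bleached vehicle and unbleached vehicle libraries. C1ql2, a secreted synaptic protein of the C1q family, had 456, 536, 662 and 522 UMIs per 1000000 (CPM) in these cells, against 1.17, 3.53, 2.41 and 1.52 CPM in the glycinergic amacrine cells of the same libraries. Markers of other classes were present at low levels. The 9 rod genes summed to 1627, 1255, 1158 and 924 CPM and the 6 microglia genes to between 0.313 and 2.62 CPM. The 8 Müller glia genes summed to 990, 1069, 1110 and 992 CPM, and the 9 bipolar genes to 87.3, 100, 263 and 69.6 CPM. The part of these other RNAs in the results below was not tested.

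At the edge of the rule, 92 cells held 2 of the 4 marker genes, 549 held 3 and 754 held all 4. Rp1 lay between 10 and 15 per 10000 in 8 cells that were kept, and 5 cells were left out for Rp1 between 15 and 20 alone. Of the kept cells 128 held 2 of the Müller glia genes, and 11 cells were left out only because they held exactly 3. Doublets were not called, and shares without the deepest cells are given instead.

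GABAergic amacrine cells made up 5.42% of all cells of the rolipram library (interval 4.93 to 5.94), 6.35% of the BC11-38 library (5.75 to 6.99), 2.06% of the bleached vehicle library (1.73 to 2.42) and 7.67% of the unbleached vehicle library (6.99 to 8.39). The share was thus lowest in the bleached vehicle library, and its interval did not meet those of the other libraries. Fewer such cells and more cells of other classes cannot be told apart in a share. Glycinergic amacrine cells, found by the same kind of rule with Slc6a9, were also lowest there, at 4.27%, 4.69%, 2.91% and 5.93% of the rolipram, BC11-38, bleached vehicle and unbleached vehicle cells. Starburst cells, the cholinergic amacrine cells, numbered 3, 6, 0 and 24, and 0 of 6809 cells allows a share of up to 0.0441% by the limit of 3 counts (0.0542% by the exact interval).

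The GABAergic cells were also a smaller part of the amacrine cells by rule in the bleached vehicle library. They were 55.7% in the rolipram library (52.1 to 59.3), 57.0% in the BC11-38 library (53.2 to 60.8), 41.4% in the bleached vehicle library (36.1 to 46.9) and 54.7% in the unbleached vehicle library (51.2 to 58.2). The choice of cells bears on this value. Without the 10% of cells with the most UMIs in each library, the shares of amacrine cells came close to each other. They were 44.6%, 43.7%, 41.1% and 46.5% in the rolipram, BC11-38, bleached vehicle and unbleached vehicle libraries. The shares of all cells were 3.36%, 3.62%, 2.25% and 5.62%, still lowest in the bleached vehicle library. This cut kept 239 of 428, 200 of 390, 138 of 140 and 288 of 437 GABAergic amacrine cells of the same libraries. It thus removed such cells almost only from the libraries other than bleached vehicle, and does not compare the libraries at equal depth. In another setting, cells with fewer than 3000 UMIs were dropped, the rest were thinned to 3000 UMIs and the rule was applied again. GABAergic amacrine cells were then 10.0%, 10.8%, 3.21% and 13.9% of the 4363, 3610, 3861 and 3292 cells kept, a smaller base than above. Of amacrine cells they were 62.0%, 61.8%, 42.2% and 59.8%, lowest in the bleached vehicle library.

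**Figure D1:**
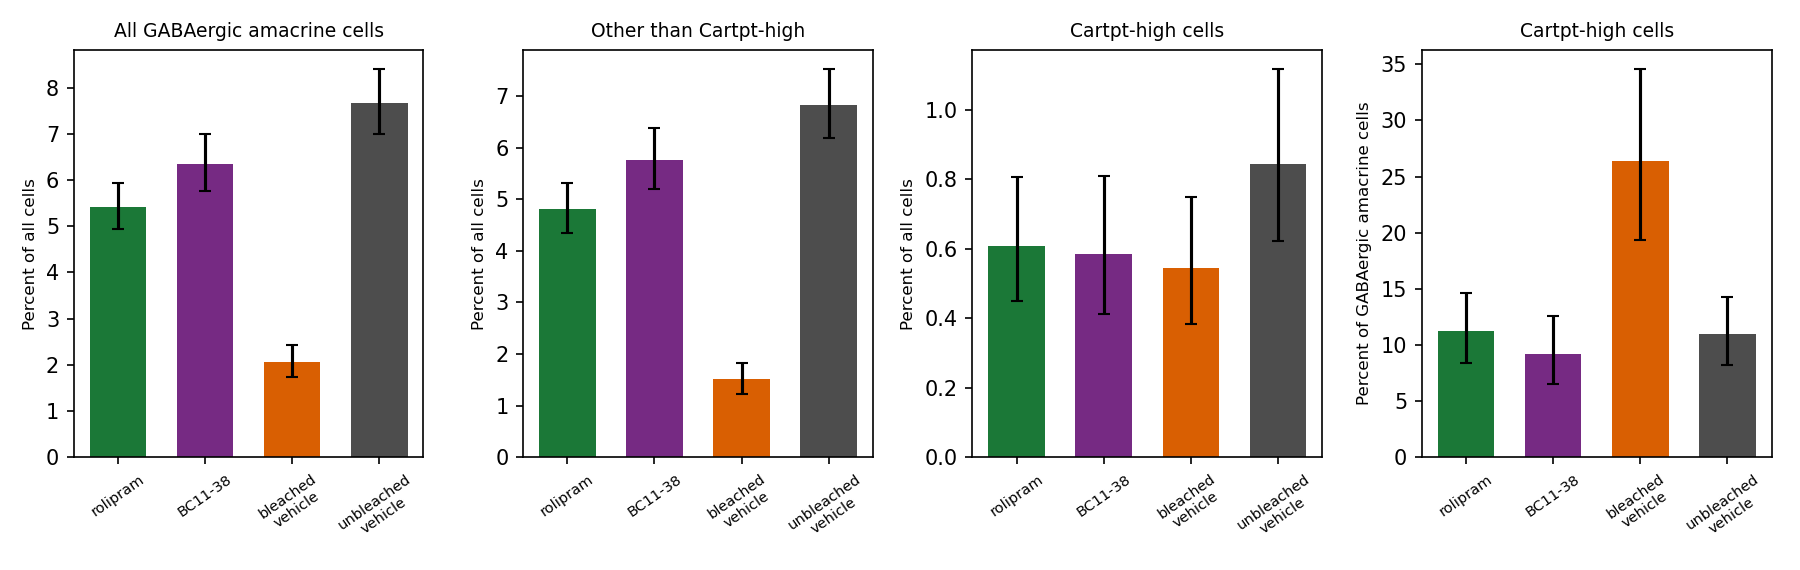
Shares of GABAergic amacrine cells in the 4 libraries. Bars give percent of all cells for all such cells, for those other than Cartpt-high and for the Cartpt-high cells, and percent of GABAergic amacrine cells for the Cartpt-high cells; whiskers are exact 95% binomial intervals. The bleached vehicle bar is lowest at 2.06% and 1.51% in the first 2 panels, while the Cartpt-high cells span 0.543% to 0.843% of all cells and reach 26.4% of GABAergic amacrine cells in that library.

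One division among the cells was by Cartpt, the gene of the neuropeptide precursor CART (chromosome 13, GRCm38, 99898489 to 99901091, minus strand). Most cells had 0 or a few Cartpt UMIs per 10000, a few lay between 10 and 50, and a separate group had more than 50. Cells with at least 20 per 10000, called Cartpt-high here, numbered 48 in the rolipram library, 36 in the BC11-38 library, 37 in the bleached vehicle library and 48 in the unbleached vehicle library. Their median was 232, 392, 232 and 236 Cartpt UMIs per 10000, and the median of all other GABAergic amacrine cells was 0. This threshold and the genes described with it were chosen after these data were seen, so they are a description.

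**Figure D2:**
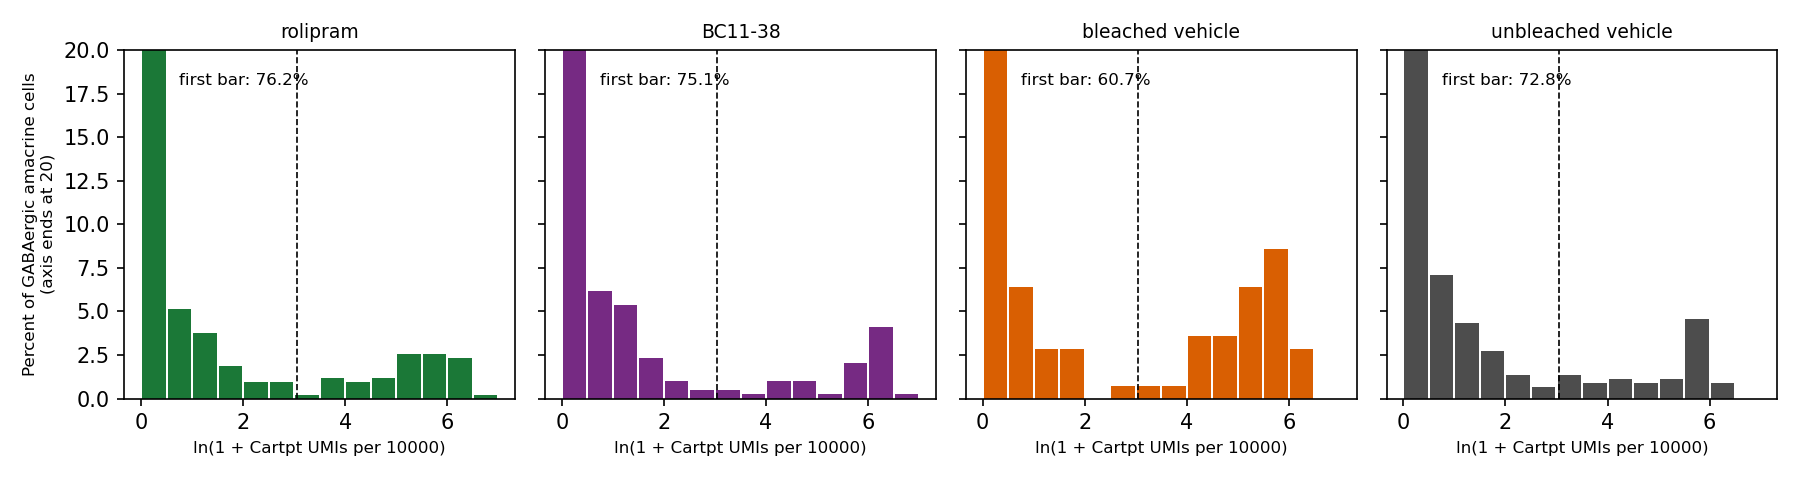
Distribution of Cartpt over the GABAergic amacrine cells of each library, as percent of cells per bin of the natural log of 1 plus Cartpt UMIs per 10000. The vertical axis ends at 20, the first bar of each panel is written as a number (76.2%, 75.1%, 60.7% and 72.8%), and the dashed line marks 20 per 10000; a second group of cells lies to its right in all 4 libraries.

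The Cartpt-high cells carried a set of genes that the other cells nearly lacked. Kit, a receptor tyrosine kinase, had 1134, 1190, 909 and 849 CPM in the Cartpt-high cells of the rolipram, BC11-38, bleached vehicle and unbleached vehicle libraries, against 1.05, 0.316, 10.8 and 0.228 CPM in the other GABAergic cells. Slc35d3, a member of the nucleotide sugar transporter family, had 427, 482, 453 and 332 CPM against 0.701, 0, 4.31 and 0.228 CPM. Syt10, a synaptotagmin, had 658, 673, 552 and 563 CPM against 3.85, 1.58, 2.15 and 2.74 CPM. The same cells were high in Rprm, a p53-induced gene, in the transcription factor gene Nfia, in the nuclear receptor gene Nr4a2, in the synaptic vesicle gene Sv2c and in the somatostatin receptor gene Sstr2. Across the 1395 cells, on the scale of the natural log of 1 plus UMIs per 10000, Kit and Slc35d3 correlated at r = 0.91 and Cartpt and Kit at r = 0.86. These correlations describe cells that share 4 libraries, and most of the cells are at 0 for each gene.

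Other genes were rarer or absent in the Cartpt-high cells. Maf, a transcription factor gene, had 17.5 CPM in the Cartpt-high cells of the rolipram library and 0 CPM in those of the other 3 libraries, against 488, 364, 555 and 323 CPM in the other cells. The homeobox gene Lhx9 had 0 CPM in the Cartpt-high cells of all 4 libraries, against 92.5, 78.1, 88.3 and 74.4 CPM in the others. Gad1, a gene of the rule, was found in 100% of the Cartpt-high cells of each library. The vesicular transporter gene Slc32a1, also of the rule, had 541, 476, 549 and 456 CPM in them, against 498, 480, 520 and 475 CPM in the others.

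Within the Cartpt-high cells, Kit and Vip marked cells that differed. Vip encodes vasoactive intestinal peptide, a transmitter of a small set of GABAergic amacrine cells. Cells with Kit and no Vip numbered 33, 22, 29 and 24 in the rolipram, BC11-38, bleached vehicle and unbleached vehicle libraries, with a median of 248, 381, 237 and 318 Cartpt UMIs per 10000. Cells with Vip and no Kit numbered 6, 4, 1 and 8, with a median of 56.0, 56.8, 58.1 and 71.6 Cartpt UMIs and 134, 110, 181 and 164 Vip UMIs per 10000. Cells with both genes numbered 6, 9, 6 and 6, and held a median of 1.12 to 5.62 Vip UMIs per 10000. Cells with neither gene numbered 3, 1, 1 and 10, with a median of 53.5, 95.6, 30.8 and 34.7 Cartpt UMIs per 10000, so the 10 in the unbleached vehicle library had a median near the threshold of 20.

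The promoters of 4 genes of the Cartpt-high cells are shown because both drugs inhibit enzymes that break down cAMP, and cAMP acts on transcription partly through the letters TGACGTCA, the cAMP response element. Each line gives the 150 bases before the start of the gene in RefSeq on GRCm38.p6, 5′ to 3′, and capitals mark TGACGTCA or its core TGACG on either strand (CGTCA on the other), which overlap where the whole element is present. The windows are chr13:99900684-99900833 on the minus strand for Cartpt, chr11:113619177-113619326 on the plus strand for Sstr2, chr10:5639068-5639217 on the plus strand for Vip and chr5:75574837-75574986 on the plus strand for Kit.
Cartpt: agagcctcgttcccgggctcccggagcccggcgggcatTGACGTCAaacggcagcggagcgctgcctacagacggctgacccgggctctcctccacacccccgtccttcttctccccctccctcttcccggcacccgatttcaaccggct
Sstr2: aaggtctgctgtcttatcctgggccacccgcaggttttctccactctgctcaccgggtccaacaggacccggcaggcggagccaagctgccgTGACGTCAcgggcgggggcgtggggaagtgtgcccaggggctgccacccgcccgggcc
Vip: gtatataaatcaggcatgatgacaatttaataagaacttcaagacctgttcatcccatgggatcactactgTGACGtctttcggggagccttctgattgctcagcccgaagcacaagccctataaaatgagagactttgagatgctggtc
Kit: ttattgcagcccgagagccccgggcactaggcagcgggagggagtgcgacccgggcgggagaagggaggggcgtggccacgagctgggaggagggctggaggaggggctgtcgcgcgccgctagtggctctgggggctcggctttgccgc
The RefSeq start of Cartpt lies inside the longer span that the annotation of the counted genes gives it, as printed above, so its window lies inside that span too. The whole element began 112 bases before the RefSeq start of Cartpt and 58 bases before that of Sstr2, and the core began 79 bases before that of Vip. The window of Kit held neither, and a second Kit promoter of the table is not shown. Of all 32851 promoters of the table, 1.36% held the whole element and 13.3% held the core in a window of the same length. Of the 30 genes that led in the Cartpt-high cells, 19 had a promoter in the table, and Cartpt and Sstr2, both printed, were the 2 of these that held the whole element, searched over 250 bases. The rest of the 30 had no promoter in the table, so no share is read from this. A match of letters is a description of the sequence only.

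The share of Cartpt-high cells among all cells was similar in the 4 libraries. They were 0.608% of all cells of the rolipram library (0.449 to 0.805), 0.586% of the BC11-38 library (0.411 to 0.810), 0.543% of the bleached vehicle library (0.383 to 0.748) and 0.843% of the unbleached vehicle library (0.622 to 1.12), with intervals that overlapped. All other GABAergic amacrine cells were 4.81% (4.35 to 5.31), 5.76% (5.19 to 6.37), 1.51% (1.24 to 1.83) and 6.83% (6.19 to 7.51) of the same libraries. As a part of the GABAergic amacrine cells the Cartpt-high cells were therefore 11.2% in the rolipram library (8.39 to 14.6), 9.23% in the BC11-38 library (6.55 to 12.6), 26.4% in the bleached vehicle library (19.3 to 34.5) and 10.98% in the unbleached vehicle library (8.21 to 14.3). When at least 2 of Kit, Slc35d3 and Rprm defined the cells in place of Cartpt, they were 0.469%, 0.472%, 0.529% and 0.527% of all cells. Among cells with a Y-linked UMI and no Xist, the Cartpt-high cells were 27 of 138 (19.6%, 13.3 to 27.2), 15 of 196 (7.65%, 4.35 to 12.3), 36 of 130 (27.7%, 20.2 to 36.2) and 23 of 216 (10.6%, 6.87 to 15.5), so that the intervals of the rolipram and bleached vehicle libraries met in this subset.

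As a share of all cells, subtype genes outside the Cartpt-high cells were found less often in the bleached vehicle library. The share of GABAergic amacrine cells as a whole was also lowest there, at 2.06%. Tac1, which encodes substance P, was found in 49 cells of the rolipram library (0.621% of all its cells), 45 of the BC11-38 library (0.733%), 12 of the bleached vehicle library (0.176%) and 76 of the unbleached vehicle library (1.33%). Npy, the gene of neuropeptide Y, was found in 15 cells (0.190%), 25 (0.407%), 4 (0.0587%) and 52 (0.913%) of the same libraries. Cck, the gene of cholecystokinin, was found in 19, 19, 0 and 28 cells, and 0 of 140 cells allows a share of cells with a Cck UMI of up to 2.14% in the bleached vehicle library. Thus the bleached vehicle library had the smallest share of all cells with each of these peptides, and the unbleached vehicle library had the largest.

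The calcium-binding protein gene Calb2 was found in 33 cells (0.418% of all cells), 41 (0.667%), 10 (0.147%) and 70 (1.23%) of the rolipram, BC11-38, bleached vehicle and unbleached vehicle libraries. Lhx9 was found in 107 cells (1.36%), 83 (1.35%), 27 (0.397%) and 98 (1.72%), and Maf in 99 (1.25%), 63 (1.03%), 33 (0.485%) and 64 (1.12%). Within the GABAergic amacrine cells, 428, 390, 140 and 437 in these libraries, Maf was not rarer in bleached vehicle, with 33 of 140 cells. Maf had 438, 329, 405 and 285 CPM in them, and Lhx9 82.6, 70.5, 64.4 and 65.6 CPM. Th, the dopamine-making enzyme, was found in 10, 11, 5 and 14 cells, too few to rank the libraries. Kit, a gene of the Cartpt-high cells, had about the same share of all cells in each library, with 40 cells (0.507%), 32 (0.521%), 36 (0.529%) and 31 (0.544%). Sst was at 0 UMIs in the GABAergic amacrine cells of every library, which allows a share of cells with an Sst UMI of up to 0.701%, 0.769%, 2.14% and 0.686% in the rolipram, BC11-38, bleached vehicle and unbleached vehicle libraries.

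Shares were also taken within the GABAergic amacrine cells that had at least 3000 UMIs, each thinned to 3000 UMIs. Tac1 was found in 8.77%, 9.02%, 7.69% and 13.3% of the cells of the rolipram, BC11-38, bleached vehicle and unbleached vehicle libraries, and Vip in 4.01%, 4.10%, 3.85% and 3.55%. Npy was found in 3.26% (1.75 to 5.51), 4.92% (2.94 to 7.66), 3.08% (0.845 to 7.69) and 9.48% (6.86 to 12.7), lower in each bleached library than in the unbleached one, with an interval that met the unbleached one in the BC11-38 and bleached vehicle libraries. Calb2 was found in 5.51% (3.49 to 8.23), 7.10% (4.69 to 10.2), 2.31% (0.478 to 6.60) and 9.72% (7.06 to 12.9). Cartpt was found in 19.05%, 17.8%, 33.8% and 20.9%, and Kit in 8.77%, 7.65%, 23.1% and 7.11%, both highest in the bleached vehicle library. In thinned rods, which should lack these genes, Tac1 was found in at most 0.613%, Vip in at most 1.22%, Npy in at most 0.816% and Cartpt in 2.04% to 5.15% of cells, a measure of free RNA at the same depth.

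**Figure D3:**
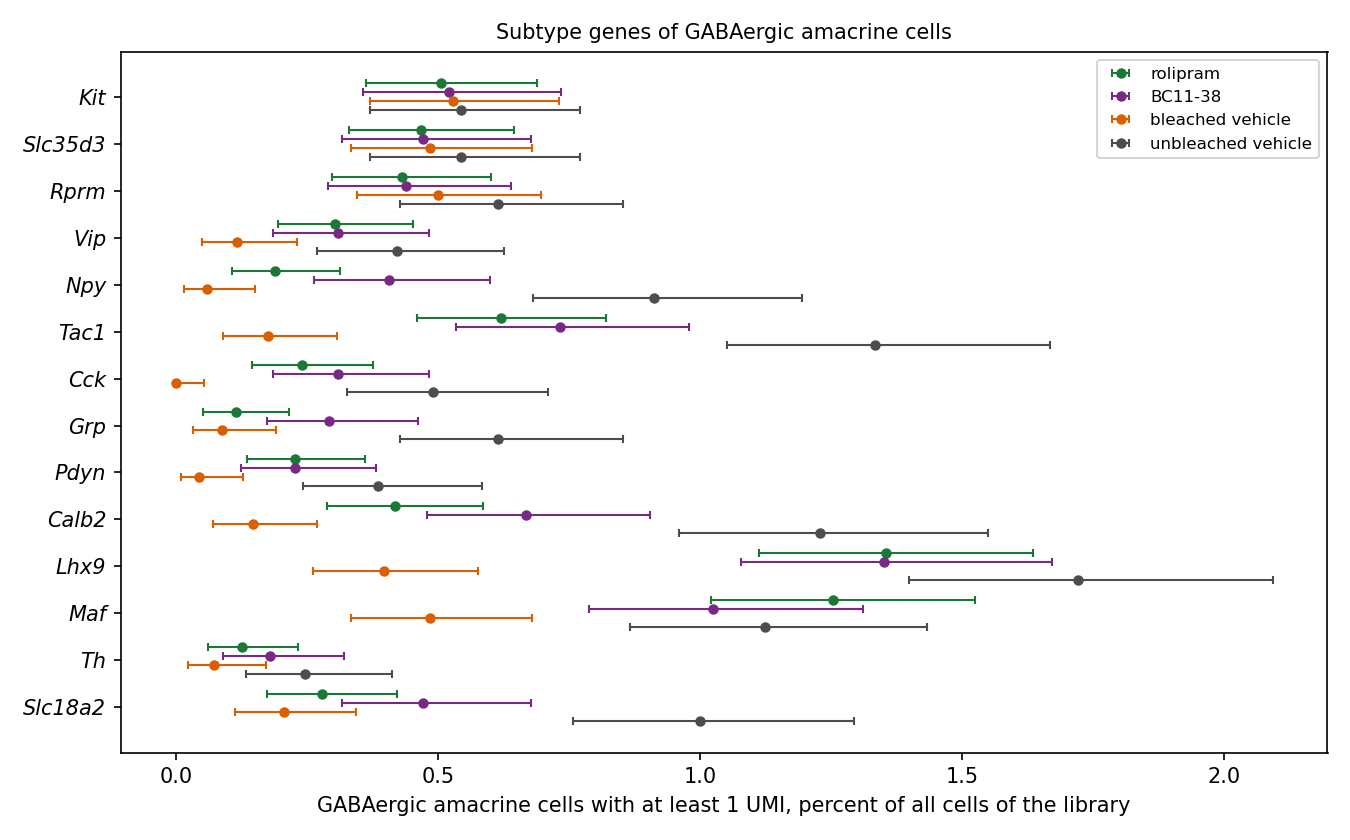
GABAergic amacrine cells with at least 1 UMI of each subtype gene, as percent of all cells of the library, without thinning; points are libraries and lines are exact 95% binomial intervals. For Kit, Slc35d3 and Rprm the 4 intervals overlap, while for Tac1, Npy, Cck, Calb2 and Lhx9 the bleached vehicle point lies lowest, at 0.176%, 0.0587%, 0%, 0.147% and 0.397%.

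Levels were next compared between libraries as shares of the summed UMIs of all GABAergic amacrine cells. A gene was counted where the libraries compared held 100 or more of its UMIs between them, and called at a ratio of 2-fold or more, with no test. In the bleached vehicle library against the unbleached vehicle library, 53 of 7955 genes were called higher (0.666%) and 77 lower (0.968%), or 1.63% in either direction. In the rolipram library against the bleached vehicle library, 35 of 6906 were called higher (0.507%) and 30 lower (0.434%), or 0.941% in either direction. In the BC11-38 library against the bleached vehicle library, 64 of 7089 were called higher (0.903%) and 44 lower (0.621%), or 1.52% in either direction. The median log2 ratio over all counted genes was 0.03, 0.00 and -0.02 in these 3 comparisons. With scaling by a trimmed mean of ratios, the calls were 44 higher and 102 lower for bleached vehicle over unbleached vehicle, 40 higher and 26 lower for rolipram over bleached vehicle, and 75 higher and 31 lower for BC11-38 over bleached vehicle.

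Many of the calls were genes of the Cartpt-high cells. Of the 53 genes higher in the bleached vehicle library than in the unbleached vehicle library, 27 were at least 2-fold higher in the Cartpt-high cells than in the other cells of every library, a property of 137 of all 7955 counted genes. The same held for 19 of the 30 genes lower in the rolipram library than in the bleached vehicle library, and for 118 of all 6906 counted genes. It held for 22 of the 44 genes lower in the BC11-38 library than in the bleached vehicle library, and for 121 of all 7089 counted genes. Without the Cartpt-high cells, 24 genes (0.325% of 7386) were higher and 73 (0.988%) lower in the bleached vehicle library than in the unbleached vehicle library, or 1.31% in all. In the rolipram library 37 (0.591% of 6260) were then higher and 15 (0.24%) lower, or 0.831% in all, and in the BC11-38 library 55 (0.847% of 6495) higher and 19 (0.293%) lower, or 1.14% in all, than in the bleached vehicle library.

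Of the genes high in the bleached vehicle library, Rprm had 31.3, 34.0, 111 and 30.2 CPM in the rolipram, BC11-38, bleached vehicle and unbleached vehicle libraries. That is a log2 ratio of 1.87 for bleached vehicle over unbleached vehicle (fold 2.89 to 4.65), -1.82 for rolipram and -1.70 for BC11-38 over bleached vehicle. Slc35d3 had 46.3, 46.8, 126 and 39.4 CPM, and Nfia 149, 102, 261 and 103 CPM. Kit had 122, 116, 254 and 101 CPM, and Cartpt 2740, 3269, 6329 and 2614 CPM. All are genes of the Cartpt-high cells, and the bleached vehicle library was highest for each. Iqgap2, a scaffold protein, and Sv2c were also highest there, with 51.8 and 116 CPM in the bleached vehicle library against 15.5 and 40.9 CPM in the unbleached one.

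Tmem114 was the named gene that stayed past 2-fold higher in the bleached vehicle library, with enough UMIs to count, once the Cartpt-high cells were left out. This gene of a membrane protein had 30.7, 31.1, 39.3 and 12.9 CPM in the rolipram, BC11-38, bleached vehicle and unbleached vehicle libraries, and log2 1.61 for bleached vehicle over unbleached vehicle (fold 2.06 to 4.48). Without the Cartpt-high cells its log2 ratio was 1.90. It was about as high in both drug libraries, so all 3 bleached libraries lay above the unbleached one.

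The genes lower in the bleached vehicle library stayed lower in the cells other than Cartpt-high, wherever they could be counted there. Igfbp5, a secreted protein that binds insulin-like growth factors, had 16.6, 19.7, 1.57 and 37.2 CPM in the rolipram, BC11-38, bleached vehicle and unbleached vehicle libraries. Its log2 ratio for bleached vehicle over unbleached vehicle was -4.57, from 2 UMIs against 185, which is 6.47- to 197-fold lower. Chrm2, the muscarinic acetylcholine receptor M2, had 18.8, 28.3, 5.50 and 34.0 CPM, and log2 -2.63 in that comparison and 2.36 for BC11-38 over bleached vehicle. The bleached vehicle library was lowest for both genes, and both drug libraries lay between it and the unbleached one.

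Tnfrsf12a, the receptor of the cytokine TWEAK, had 17.5, 52.2, 7.85 and 41.9 CPM in the rolipram, BC11-38, bleached vehicle and unbleached vehicle libraries. Cdkn1a, the cell cycle inhibitor p21, had 21.3, 30.3, 4.71 and 23.3 CPM. Log2 ratios for bleached vehicle over unbleached vehicle were -2.41 for Tnfrsf12a (2.84- to 11.3-fold lower) and -2.31 for Cdkn1a (2.21- to 13.8-fold lower), and for BC11-38 over bleached vehicle 2.73 and 2.68. Past 1.5-fold, 3.82% of all counted genes were lower and 3.75% higher in bleached vehicle than in unbleached vehicle. Of the 8 counted genes of the cell death and injury list, Tnfrsf12a and Cdkn1a were lower and 1 gene higher past 1.5-fold, with a list median of -0.21. The higher one, Gadd45a, a growth arrest gene, had 19.7, 18.6, 37.7 and 19.3 CPM. Bdnf, the brain-derived neurotrophic factor, had 18.8, 27.4, 7.85 and 23.7 CPM, and Nefh, the heavy neurofilament subunit, 54.8, 36.8, 14.1 and 41.7 CPM. In the bleached vehicle library Tnfrsf12a, Cdkn1a, Bdnf and Nefh rested on 6 to 18 UMIs each, so their ratios are imprecise. Hmcn1, Grap2, Slc24a2, Rbms3 and Erbb4 were likewise lower in the bleached vehicle library than in the unbleached one, with log2 ratios of -2.65, -2.64, -2.31, -1.77 and -1.67 on 4, 4, 5, 7 and 8 UMIs in the bleached vehicle library.

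A synapse gene and a transcription factor gene were among the lower ones too. Grin2b, an NMDA receptor subunit, had 123, 118, 58.1 and 115 CPM in the rolipram, BC11-38, bleached vehicle and unbleached vehicle libraries. Zfhx3, a homeobox transcription factor, had 417, 435, 198 and 428 CPM. Both drug libraries lay close to the unbleached library and the bleached vehicle library was the one apart. The glutamate receptor genes Grik1 and Grm5 went the other way, with 36.1 and 121 CPM in the bleached vehicle library against 14.9 and 63.0 CPM in the unbleached one. Grm5 is a gene of the Cartpt-high cells, and Grik1 is one of the bipolar marker genes, whose sum was highest in the bleached vehicle library, as given above.

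Genes higher in the rolipram library than in the bleached vehicle library included enzymes of serine and one-carbon metabolism. Phgdh, the first enzyme of serine synthesis, had 28.8, 19.1, 9.42 and 14.3 CPM in the rolipram, BC11-38, bleached vehicle and unbleached vehicle libraries, and log2 1.61 for rolipram over bleached vehicle (fold 1.67 to 6.13). Mthfd2, a mitochondrial folate enzyme, had 37.9, 36.2, 12.6 and 24.96 CPM, with log2 1.59 for rolipram and 1.53 for BC11-38 over bleached vehicle. Optn, an autophagy receptor, had 40.4, 39.1, 14.9 and 40.3 CPM, and Lor, named for the skin protein loricrin, 27.8, 30.5, 10.99 and 30.2 CPM. For Optn and Lor the drug libraries matched the unbleached library within 1.5-fold. Nefh, Zfp641, Gm13629, Brinp3 and Hist1h2ap were also among the named higher genes, with log2 ratios between 1.32 and 1.95.

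Some genes set 1 library apart in glycinergic amacrine cells and over all other cells as well. Gm8797 had 86.1 CPM in the rolipram library, 267 in the BC11-38 library, 450 in the bleached vehicle library and 512 in the unbleached vehicle library, and log2 -2.39 for rolipram over bleached vehicle, with -2.22 in the glycinergic cells. Hist1h2ap, a histone H2A gene, was highest in the rolipram library at 88.2 CPM against 35.3 CPM in the bleached vehicle library, with log2 1.32, and 1.33 in the glycinergic cells. Brinp3 was the other one of the 10 higher genes past 2-fold in glycinergic cells, where 4 of the 10 could be counted. Wfs1, a membrane protein of the endoplasmic reticulum, had 46.9, 35.7, 157 and 83.1 CPM, and log2 -1.74 for rolipram and -2.14 for BC11-38, with -2.53 and -3.12 in the glycinergic cells. Rnf121, a ubiquitin ligase, had 26.0, 71.6, 24.3 and 26.6 CPM, highest in the BC11-38 library, with log2 1.56 over bleached vehicle and 1.26 in the glycinergic cells. Over all cells outside the rule, Gm8797 had 61.5 CPM with rolipram against 295 CPM in bleached vehicle, and Hist1h2ap 62.4 against 29.6 CPM. There Wfs1 had 22.9 CPM with rolipram and 17.3 CPM with BC11-38, against 42.8 CPM in bleached vehicle. Rnf121 had 123 CPM there with BC11-38 against 29.7 CPM in bleached vehicle. These shifts were thus not particular to amacrine cells. Reads of Gm8797 and of Hist1h2ap may be shared with near-identical copies, and the sources used here do not say how such reads were treated.

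Among the named genes higher in the BC11-38 library than in the bleached vehicle library, Sik1, a kinase that cAMP induces, had 20.3, 45.95, 14.1 and 28.0 CPM in the rolipram, BC11-38, bleached vehicle and unbleached vehicle libraries, and log2 1.70 for BC11-38 over bleached vehicle (fold 1.99 to 5.63). Fosl2, a subunit of the transcription factor AP-1, had 20.97, 38.2, 10.99 and 30.6 CPM, and Slc7a5, an amino acid transporter, 23.8, 31.1, 9.42 and 23.1 CPM. The level in the rolipram library lay between the bleached vehicle and BC11-38 levels for all 3 genes. Whether BC11-38 and rolipram differ was not tested, and each value comes from 1 library. The lower genes outside the Cartpt-high cells included Crybb3, a crystallin, and Rgs4, a regulator of G protein signalling, with 18.3 and 18.6 CPM in the BC11-38 library against 46.3 and 44.8 CPM in the bleached vehicle library.

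Without the Cartpt-high cells, few of the 10 higher genes of the bleached vehicle library over the unbleached one still had 100 UMIs: 2 did, and 1 of them stayed past 2-fold. Of its 10 lower genes, 7 could still be counted and all 7 stayed past 2-fold. In the rolipram library 8 of 8 higher and 2 of 3 lower genes that could be counted stayed past 2-fold over bleached vehicle, and in the BC11-38 library 8 of 8 higher and 3 of 4 lower ones did.

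**Figure D4:**
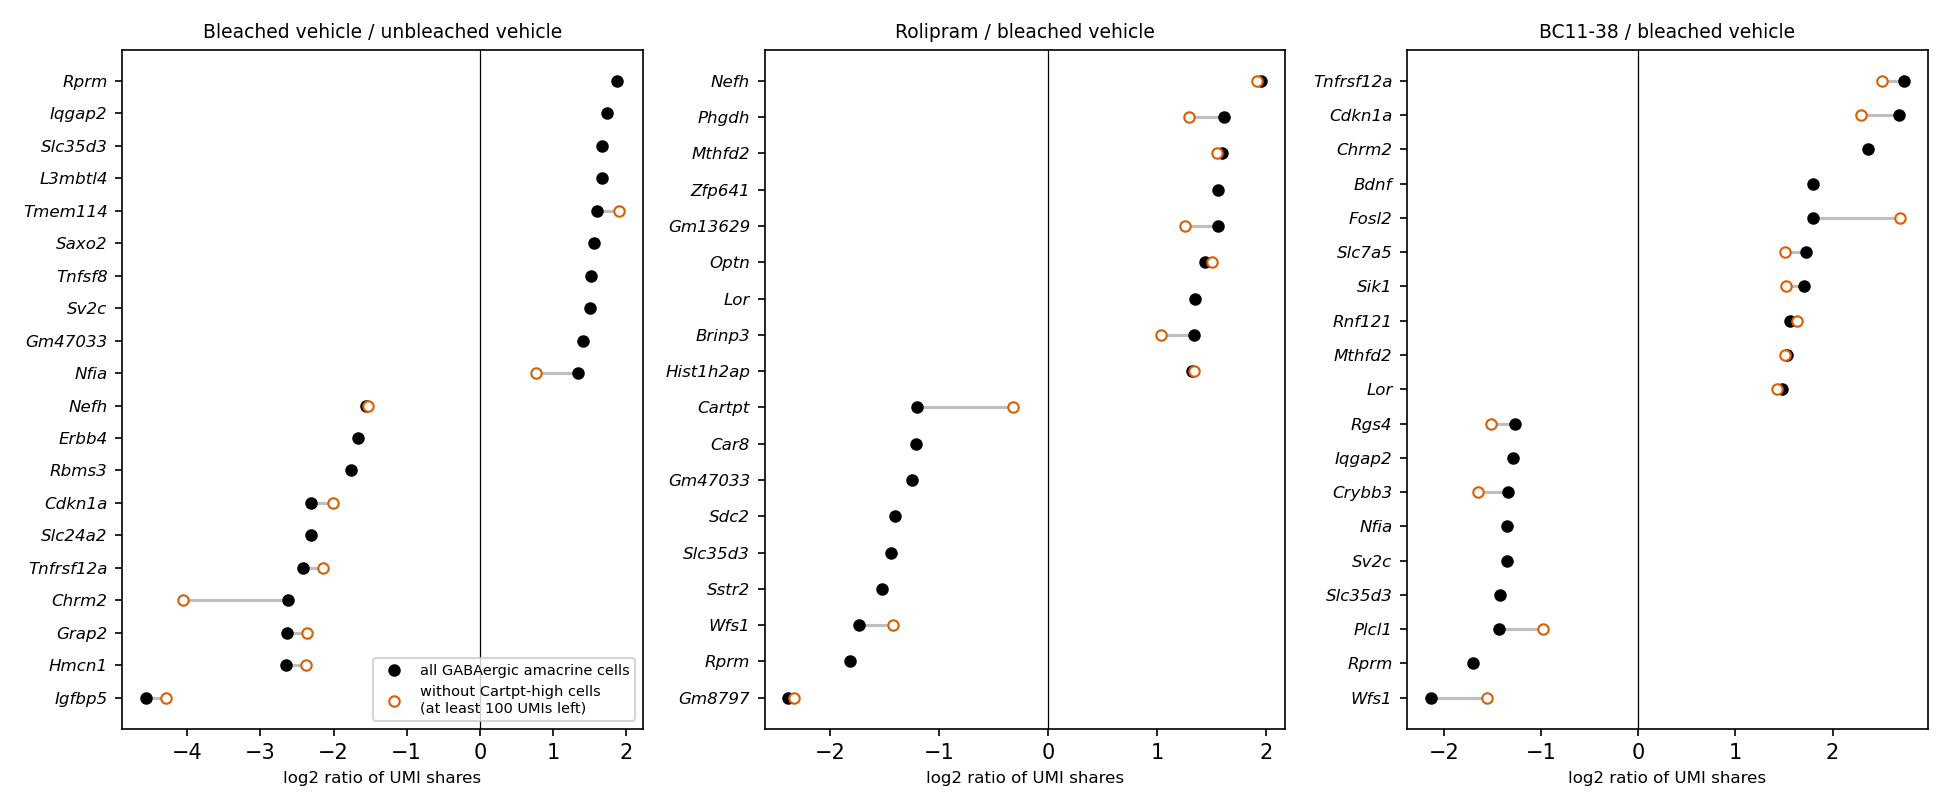
Log2 ratios of UMI shares for the named genes reported in each comparison, up to 10 higher and up to 10 lower. Black points use all GABAergic amacrine cells and open points leave out the Cartpt-high cells, drawn where at least 100 UMIs remained. Open points exist for 7 of the 10 genes lower in bleached vehicle and for 2 of its 10 higher ones.

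The lists of genes by function differed in how far they lay from the median of all genes. Of the 10 counted genes that make, move or break down GABA, 0 passed 1.5-fold in any comparison, near the shares of 7.57%, 5.18% and 6.7% of all counted genes for bleached vehicle over unbleached vehicle, rolipram over bleached vehicle and BC11-38 over bleached vehicle. The list includes Gad1, Gad2 and Slc32a1, which the rule used. Abat, which degrades GABA, had 82.0, 98.8, 85.6 and 102 CPM in the rolipram, BC11-38, bleached vehicle and unbleached vehicle libraries. The nuclear genes of oxidative phosphorylation had medians of 0.04, 0.01 and -0.04 over 55 counted genes in the same 3 comparisons. The circadian clock genes had medians of 0.02, -0.10 and 0.05, the release machinery 0.10, 0.10 and 0.02 and the GABA and glycine receptors 0.03, 0.09 and -0.07.

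Of the 20 lists, the genes of the integrated stress response and the unfolded protein response, which neurons switch on when protein synthesis or folding is strained, stood farthest from the median of all genes. Their median log2 ratio was -0.52 for bleached vehicle over unbleached vehicle (13 counted), 0.58 for rolipram over bleached vehicle (13 counted) and 0.50 for BC11-38 over bleached vehicle (12 counted). In the first comparison 0 passed 1.5-fold upward and 4 downward, and in each drug comparison 6 passed upward and 0 downward. Background shares at 1.5-fold were 3.75% higher and 3.82% lower for bleached vehicle, 2.95% higher and 2.23% lower for rolipram, and 3.46% higher and 3.24% lower for BC11-38. Ddit3, the transcription factor CHOP, had 185, 258, 113 and 163 CPM in the rolipram, BC11-38, bleached vehicle and unbleached vehicle libraries. Asns, asparagine synthetase, had 104, 129, 62.8 and 107 CPM, and Atf4, the central transcription factor of the response, 215, 252, 144 and 212 CPM. The bleached vehicle library was thus the lowest for each of them, and the BC11-38 library the highest.

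The medians of this list without the Cartpt-high cells were -0.55, 0.60 and 0.49. Among cells with a Y-linked UMI and no Xist they were -0.39, 0.29 and 0.39. In glycinergic amacrine cells they were -0.29, -0.03 and -0.10, nearer to the median of all genes. The difference between GABAergic and glycinergic cells was not tested.

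Genes of cholesterol synthesis had medians of -0.29, 0.33 and 0.49 for bleached vehicle over unbleached vehicle, rolipram over bleached vehicle and BC11-38 over bleached vehicle. In the last comparison 6 of 16 counted genes passed 1.5-fold upward and 0 downward, against 3.46% and 3.24% of all counted genes. Hmgcs1, which makes HMG-CoA, had 372, 441, 257 and 372 CPM in the rolipram, BC11-38, bleached vehicle and unbleached vehicle libraries, and Idi1, an isomerase of the pathway, 136, 170, 94.2 and 129 CPM. Without the Cartpt-high cells the medians were -0.21, 0.17 and 0.46. In glycinergic amacrine cells they were -0.15, 0.46 and 0.35, in the same direction as in the GABAergic cells. Heat shock genes had medians of -0.33, 0.12 and 0.10, and mitochondrially encoded genes -0.25, -0.05 and 0.24.

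Immediate early genes, which neuronal activity and dissociation induce, had medians of -0.09, 0.01 and -0.19. For BC11-38 over bleached vehicle, 2 of 17 counted genes passed 1.5-fold upward (Fosl2 and Egr3) and 1 downward (Junb). Of all counted genes, 3.46% passed upward and 3.24% downward. Fos had 865, 772, 807 and 900 CPM and Egr1 439, 415, 475 and 427 CPM in the rolipram, BC11-38, bleached vehicle and unbleached vehicle libraries, without a library apart. Klf2 was the counted gene of this list farthest from a ratio of 1, at log2 -2.57 for bleached vehicle over unbleached vehicle, with 14.1, 2.57, 5.50 and 32.6 CPM. The sum of the 4 vascular marker genes in the same cells was 9.39, 1.43, 0.785 and 22.9 CPM, higher in the rolipram and unbleached vehicle libraries, as Klf2 was, and its part in this value was not tested. Of the cAMP and phosphodiesterase genes, the 21 counted for BC11-38 over bleached vehicle had a median of 0.04, and Sik1 and Pde10a, a phosphodiesterase of cAMP and cGMP, were the 2 past 2-fold upward. Of all genes counted in this comparison, 0.903% were past 2-fold upward. Pde10a had 247, 333, 164 and 239 CPM. Interferon and antigen presentation genes were scarce, with 5, 1 and 1 of 31 reaching 100 UMIs.

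**Figure D5:**
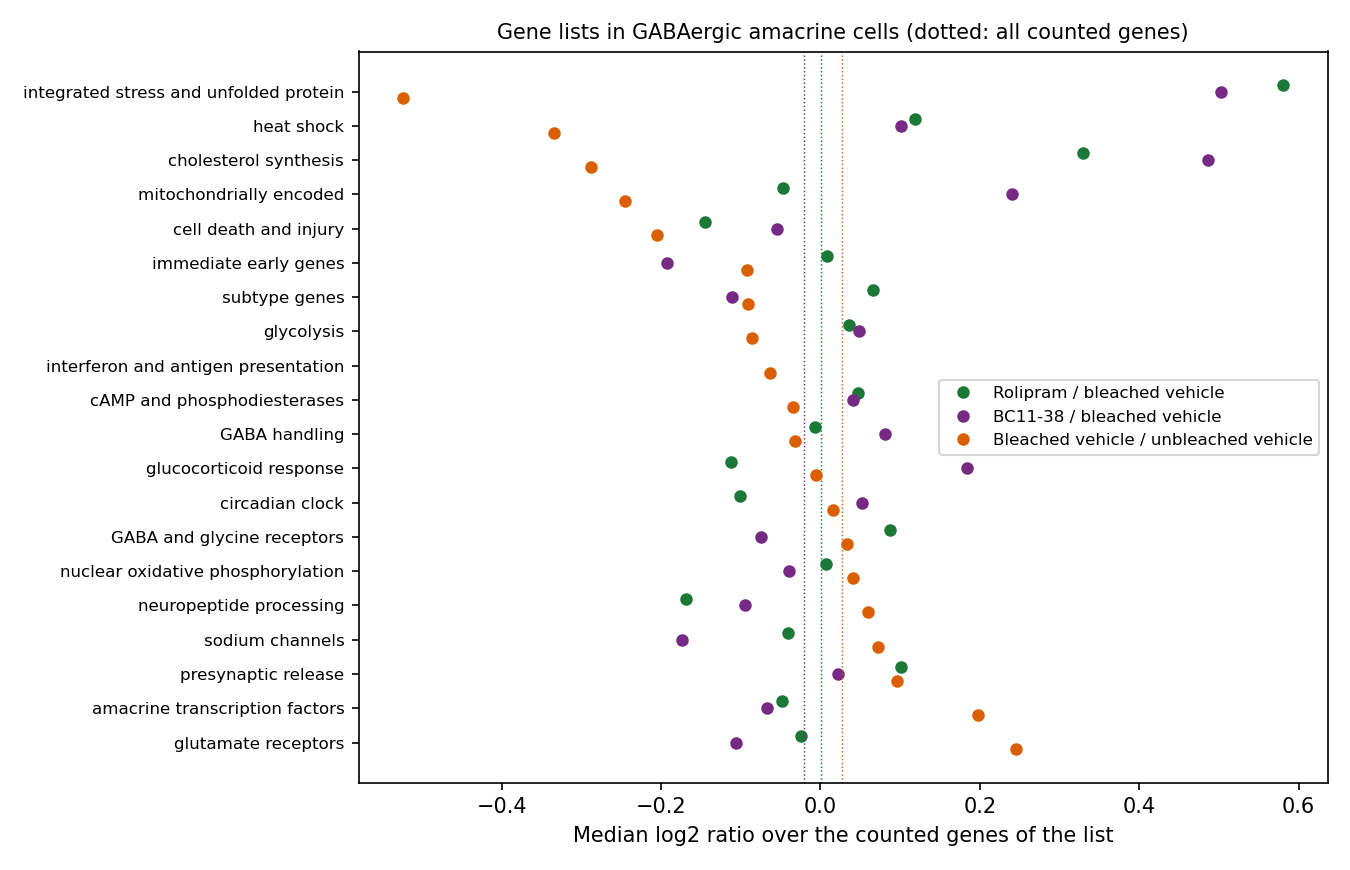
Median log2 ratio of each gene list in the 3 comparisons, over genes with at least 100 UMIs in both libraries together; dotted lines are the medians over all counted genes. The stress response list lies at -0.52 for bleached vehicle over unbleached vehicle and at 0.58 and 0.50 for the drugs over bleached vehicle, and the nuclear oxidative phosphorylation list between -0.04 and 0.04.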

How the data were processed

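The deposited table held natural log values, per the file headers and values: the natural log of 1 plus UMIs per 10000, 1 column for each of 26543 cells and 20094 genes. Cell Ranger 6.0.1, Seurat 3.2.2 and the mm10 build are named in the submitters' processing notes, and the counting of introns and strand is not given in the sources used here. Each cell's UMIs were recovered from the size of 1 molecule: 100% of values were whole within 0.001, for 140410160 UMIs in all, and every cell had at least 497 genes. Counts had been expected, so shares of recovered UMIs took their place.

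Cells and genes were summed per library, and ratios carry conditional binomial 95% intervals, shares Clopper-Pearson ones. With 1 library per group no test was run. Named genes were, per comparison, the 10 highest and 10 lowest of those with at least 100 UMIs, at least 2-fold, an interval without 1, at most 20% of UMIs from 1 cell and a level, where higher, of at least 0.5 times that of all other cells of the library, leaving out the rule's, Xist and Y-linked genes. The cells' rule, lists and the Cartpt threshold of 20 per 10000 were chosen with earlier results of these data known. Alternatives were other scalings, UMI minimums, thinning to 3000 or 1500 UMIs, subsets of cells and, added after seeing the data, leaving out the Cartpt-high cells and other definitions of them. Thinning dropped the cells with fewer UMIs than its target. Promoters are RefSeq sequences. Scripts were tested on simulated data (Python 3.11.15, NumPy 2.4.6, SciPy 1.17.1, pandas 2.3.3, Matplotlib 3.10.9). The series text names 1 more group, not analysed here. Some genes are not reported here.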

Additional observations from a re-analysis of the deposited data

Results flagged for a closer look

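In 2 cases a named gene differed in opposite directions in GABAergic and glycinergic amacrine cells of the same libraries, and none of these differences was tested. Slc24a2, a sodium, calcium and potassium exchanger, had a log2 ratio of -2.31 for bleached vehicle over unbleached vehicle in the GABAergic cells (3.93 CPM in bleached vehicle against 19.5 CPM in unbleached vehicle) and 1.31 in the glycinergic cells (144 CPM in bleached vehicle against 58.1 CPM in unbleached vehicle). Crybb3, a crystallin, had -1.34 for BC11-38 over bleached vehicle in the GABAergic cells (18.3 CPM in BC11-38 against 46.3 CPM in bleached vehicle) and 2.67 in the glycinergic cells (66.5 CPM in BC11-38 against 10.4 CPM in bleached vehicle).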

How the results depend on the processing

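No paired analysis was possible because each group was 1 library, and no replicate could be left out for the same reason. Cells with at least 3000 UMIs were thinned to 3000 UMIs, and the others were dropped. With the rule applied again, GABAergic amacrine cells were 10.0%, 10.8%, 3.21% and 13.9% of the kept cells in the rolipram, BC11-38, bleached vehicle and unbleached vehicle libraries. Of amacrine cells they were then 62.0% in the rolipram, 61.8% in the BC11-38 and 59.8% in the unbleached vehicle library. The Cartpt-high cells and the others were instead taken from the GABAergic cells picked before thinning. They were 1.03%, 0.942%, 0.932% and 1.49%, and 8.11%, 9.20%, 2.43% and 11.3%, of the kept cells, so they are not parts of the shares above. With thinning to 1500 UMIs and the rule applied again, GABAergic cells were 63.5%, 65.3% and 64.2% of amacrine cells in the rolipram, BC11-38 and unbleached vehicle libraries. Of the kept cells they were 6.44% with rolipram and 8.61% in unbleached vehicle. Without the deepest 10% of cells, the shares of all cells were 3.36%, 3.62% and 5.62%, and of amacrine cells 44.6%, 43.7% and 46.5%, in the rolipram, BC11-38 and unbleached vehicle libraries. Defined by Kit, Slc35d3 and Rprm, the Cartpt-high cells of the unbleached vehicle library were 6.86% of the GABAergic cells and 0.527% of all cells. Genes past the fold threshold for bleached vehicle over unbleached vehicle, rolipram over bleached vehicle and BC11-38 over bleached vehicle numbered 503, 335 and 366 with at least 30 UMIs, 29, 17 and 21 with at least 300 UMIs, 602, 358 and 475 at 1.5-fold, and 30, 23 and 30 with thinned cells. Among cells with a Y-linked UMI and no Xist they numbered 89 for bleached vehicle over unbleached vehicle (48 higher and 41 lower). In that subset they numbered 19 for rolipram (7 higher and 12 lower) and 63 for BC11-38 (27 higher and 36 lower) over bleached vehicle. Named gene ratios with enough UMIs to count kept their direction under each alternative, such as 26 of 26 in that subset and 32 of 32 without the Cartpt-high cells. Below that minimum, Sstr2 for rolipram over bleached vehicle turned from -1.53 to 0.45 without the Cartpt-high cells, on 21 UMIs with rolipram and 5 in bleached vehicle. The cause of these shifts was not tested. The 140 cells of the bleached vehicle library limit both drug comparisons.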

Other observations

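More secreted signals split by the Cartpt threshold. Tac2, which encodes neurokinin B, had 0 CPM in the Cartpt-high cells of all 4 libraries, against 225, 86.0, 158 and 163 CPM in the other GABAergic amacrine cells of the rolipram, BC11-38, bleached vehicle and unbleached vehicle libraries. Cxcl14, a chemokine, had 49.7, 5.88, 2.90 and 1.70 CPM in the Cartpt-high cells, against 551, 455, 706 and 423 CPM in the others.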
